A study of Homo sapiens with 4 samples.

Results

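The genes named DDX and DHX, which mostly encode RNA helicases of the DEAD-box and DEAH-box families, were compared between RNA recovered with SIRT7 and the input RNA of the same cell line. Members were all genes whose symbol starts with DDX or DHX followed by a digit and holds no hyphen, which gave 62 of the 23615 genes in the table, 46 DDX and 16 DHX. Of these, 50 had enough fragments to be tested, 35 DDX and 15 DHX. SIRT7 is a sirtuin, an NAD-dependent protein deacylase found largely in the nucleolus, and the series asks which RNAs come down with it. RNA immunoprecipitation (RIP) takes a protein out of a lysate with an antibody and sequences the RNA that stays with it.

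The SIRT7 RIP group held 2 libraries, made from RNA that was pulled from lysates with an anti-Flag M2 affinity gel and set free with proteinase K. The input group held 2 libraries of total RNA taken up with TRI reagent. All 4 libraries, input included, came from HEK 293T, a human embryonic kidney line, carrying stably overexpressed Flag-SIRT7. In both groups ribosomal RNA was depleted with a Ribo-Zero kit and the libraries kept strand. Cells without the tag were not analysed here, so RNA that sticks to the gel is part of the RIP values. Whether a group's libraries were grown as separate cultures is not stated in the labels. The p-values measure only the spread between these 4 libraries, which may be technical.

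DEAD-box and DEAH-box proteins use ATP to remodel RNA and RNA-protein complexes. DEAD-box enzymes mostly pry open short duplexes locally, whereas DEAH-box enzymes move along a strand from its 3′ side. Both kinds act in splicing, ribosome assembly, mRNA export, translation and decay. The measurements below concern the mRNAs of these genes and not the helicase proteins.

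The RIP libraries held 25655455 and 25998032 fragments, against 18131602 and 17310753 in the input libraries. SIRT7 mRNA itself stood at 43950 and 43200 CPM (counts scaled to a common library size) in RIP, against 1148 and 1181 CPM in input. All 7 HEK293 marker genes were tested, with PAX2 under 1 CPM, and their summed level was 949.9 and 954.8 CPM in RIP and 596.2 and 645.6 CPM in input. VIM carried most of that sum, with 757.8 and 778.2 CPM in RIP and 446.2 and 499.2 CPM in input, whereas NEFL had 24.7 and 24.9 CPM in RIP and 51.4 and 50.8 CPM in input. Of 13 markers of blood, endothelium, fibroblasts, liver and muscle, 11 were under 1 CPM in every library, CD3E and HBB were at 0, and the summed level was 12 and 11.8 CPM in RIP and 9.73 and 9.72 CPM in input. The part of these marker levels in the helicase values was not tested.

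CPM values here are scaled with TMM factors, which set the bulk of genes level between libraries. "Higher" and "lower" therefore mean relative to that bulk. Scaling by the library totals alone moved the log2 fold changes by a median of -0.73, and it took the median of all tested genes to -0.76, against -0.03 with TMM. In these bulk libraries a smaller share of a gene's RNA recovered and fewer RNA molecules in the cells that went into the pull-down cannot be told apart.

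Of the 50 tested helicase genes, 28 were higher in RIP than in input and 14 were lower at an adjusted p under 0.05 in edgeR's quasi-likelihood test. Among all 14555 tested genes, 38% were higher and 39.7% were lower. The members' larger share of higher genes turns round with library totals, by which 5 (10%) were higher and 39 (78%) lower, beside 17% and 65.5% of all tested genes. The median log2 fold change of the members was 0.26, which lies 0.29 above that of all tested genes with either scaling. By class, 9 of 15 DHX genes were higher and 3 lower, and their median was 0.39. Of the 35 DDX genes, 19 were higher and 11 lower, and their median was 0.20. Scaled by library totals, 3 DHX genes were higher and 12 lower, and 2 DDX genes were higher and 27 lower.

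Fold change fell with the length of the transcript over the whole table (Spearman rho -0.601 over 14555 genes, a description, as genes share their libraries). Length here is the effective length implied by the deposited FPKM, given in multiples of the median tested gene. The helicase mRNAs were longer than most. All 15 tested DHX genes lay above the median length (range 1.05 to 2.01, median 1.49), as did 22 of 35 DDX genes (range 0.499 to 2.22, median 1.14). Within the members the relation to length was weaker, with rho 0.161 over 15 DHX genes, -0.287 over 35 DDX genes and -0.156 over all 50.

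**Figure D1:**
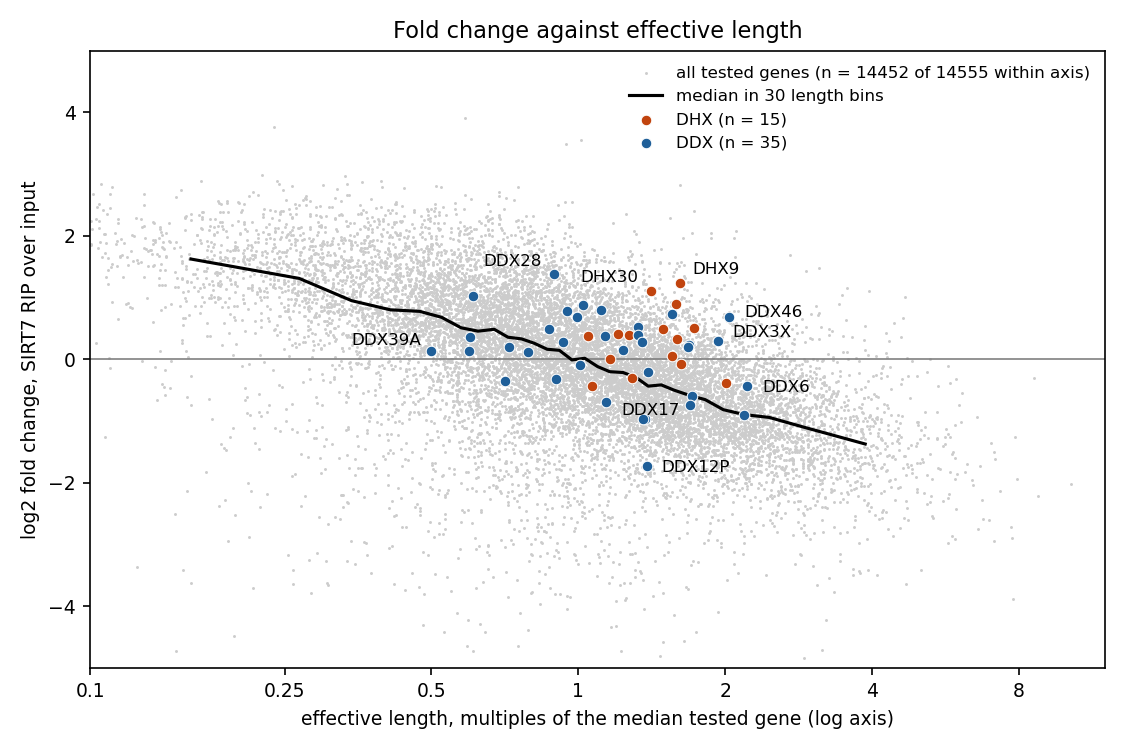
Log2 fold change of SIRT7 RIP over input with TMM scaling (vertical axis) against effective length in multiples of the median tested gene (horizontal axis, logarithmic), with 1 grey point per tested gene (14452 of 14555 lie within the axes), a black line for the median in 30 length bins, orange points for 15 DHX genes and blue points for 35 DDX genes. The line falls with length and most DHX points lie above it; with library totals the whole plot moves by about -0.73.

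A smooth trend of level on length was then taken out of each library and the test repeated, which gives length-corrected values relative to genes of like length. In this fit 31 of 50 members were higher and 11 lower, beside 34.8% of all tested genes higher and 35.6% lower. The DHX genes had 12 of 15 higher and 1 lower, and their median log2 fold change was 0.61. The DDX genes had 19 of 35 higher and 10 lower, with a median of 0.30. These length-corrected calls were the same for 50 of 50 members under either scaling, since the trend removal recentres each library. Across both fits 26 members (52%) were higher in each and 7 (14%) were lower in each, beside 25.6% and 26.3% of all tested genes. DDX47 and DDX39B turned from higher to lower with the correction, and DDX6 and DHX33 turned from lower to higher.

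The size and the sign of the difference between the classes depended on the measure. The DHX median lay 0.19 above the DDX median on the log2 scale without the correction and 0.31 above it with the correction. The mean log2 fold change was 0.31 in DHX and 0.09 in DDX, and 0.68 and 0.22 with the correction. Taken instead as the gap between the class medians of log2 CPM within a library, the DHX minus DDX value was -0.17 and -0.25 in the RIP libraries, against -0.09 and -0.18 in the input libraries. By this measure the sign was the opposite one, the RIP minus input difference being -0.08 with an SD of 0.08, and the libraries of the groups overlapped. It compares the middle gene of each class in each library, which need not be the same gene throughout. Members of a class are not replicates, so no test was made of the classes. Without input replicate 2 the uncorrected difference was 0.10.

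Length did not separate the classes fully. Of the DDX genes, 17 lay in the length range of the DHX genes, a subset taken after seeing the data. Among them 9 were higher and 7 lower, with a median of 0.20, beside 9 higher and 3 lower of 15 DHX genes. All 4790 tested genes in that range had 19% higher, 55.8% lower and a median of -0.40. They were less abundant, with a median FPKM of 5.83, beside 18.7 in the DHX genes and 23.9 in the 17 DDX genes. With the length correction the 17 DDX genes had 10 higher and 4 lower and a median of 0.50, and the DHX median was 0.61. All tested genes in that range then had 34.2% higher, 35.5% lower and a median of -0.03. The other 18 DDX genes, mostly shorter, had 10 (55.6%) higher and 4 (22.2%) lower without the correction (median 0.24), beside 38% and 39.7% of all tested genes. With it they had 9 (50%) higher and 6 (33.3%) lower (median 0.04), beside 34.8% and 35.6%. The uncorrected directions here are those of TMM scaling, and library totals move the uncorrected medians by about -0.73.

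The symbol does not always name the family. DDX11, its pseudogene copy DDX12P, DDX58 (RIG-I, now RIGI), DDX60 and DDX26B (now INTS6L, a relative of an Integrator subunit) are not DEAD-box proteins. All 5 were lower in RIP without the length correction, beside 39.7% of all tested genes. DDX58 and DDX60 were not called with the correction, at -0.18 and -0.09. The other 30 DDX genes, a subset also taken after seeing the data, had 19 (63.3%) higher and 6 (20%) lower, with a median of 0.29. All tested genes had 38% higher and 39.7% lower. With library totals 2 (6.67%) of the 30 were higher and 22 (73.3%) lower, beside 17% and 65.5%. Length-corrected, 19 of these 30 were higher and 7 (23.3%) lower, with a median of 0.45, beside 34.8% and 35.6% of all tested genes. Set against these 30 genes, the DHX median was 0.10 higher without and 0.17 higher with the correction.

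**Figure D2:**
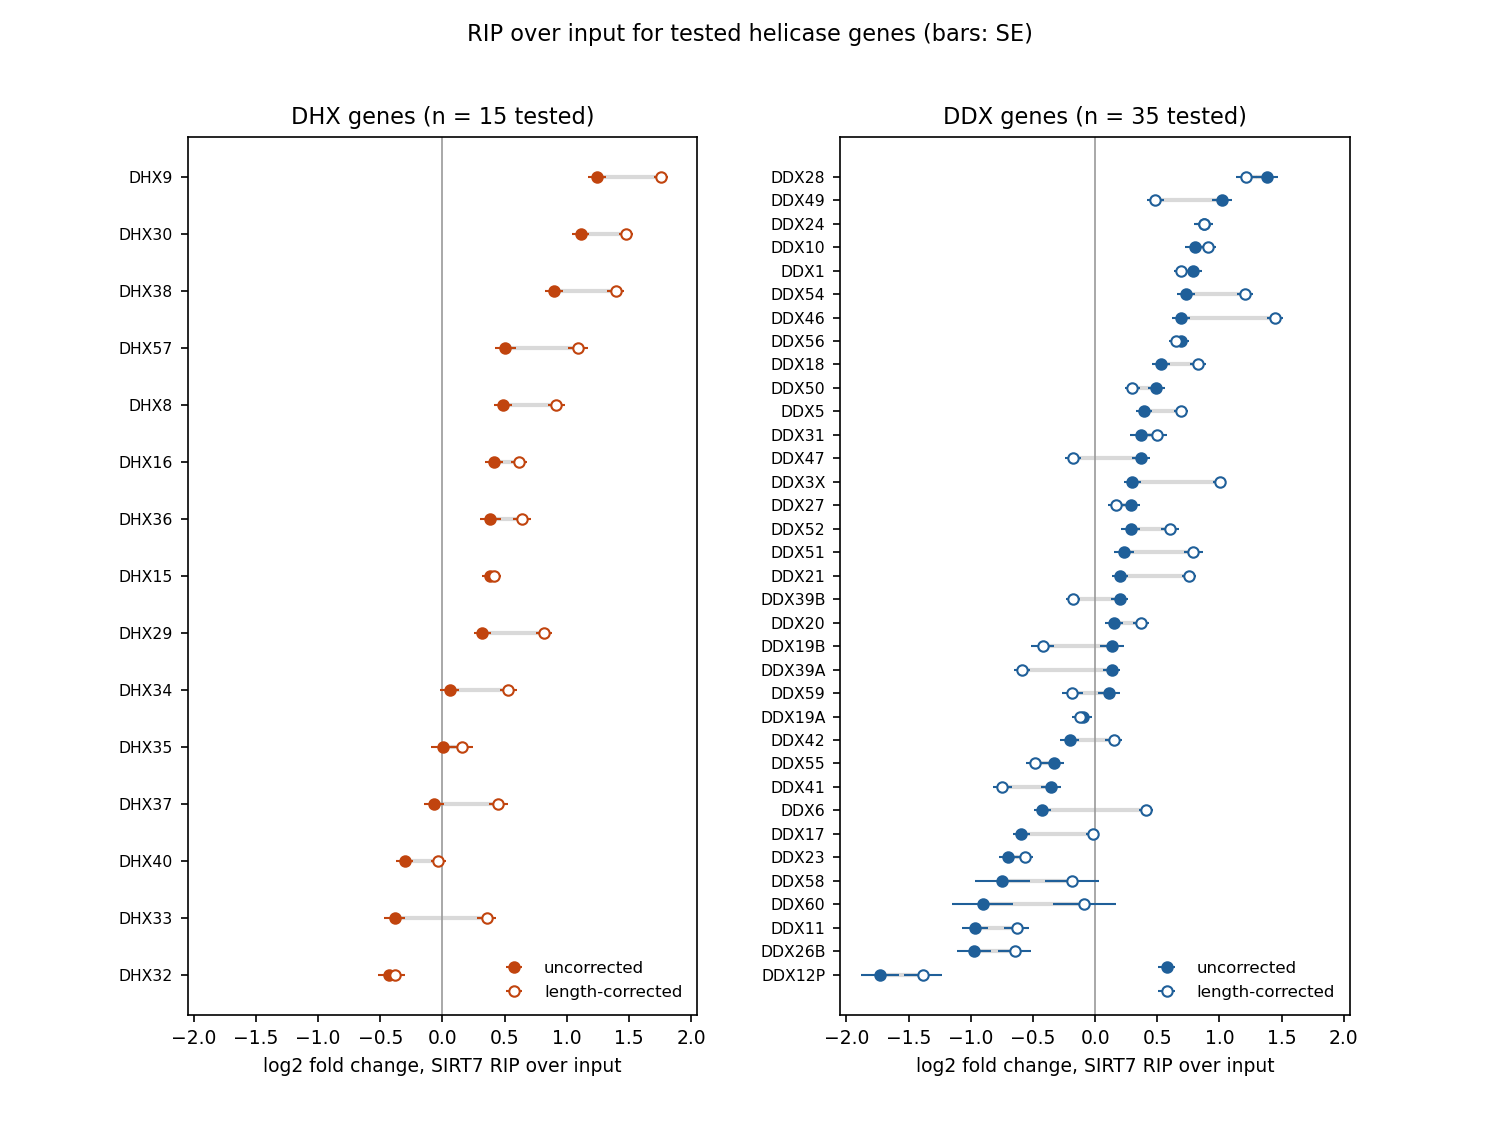
Log2 fold change of SIRT7 RIP over input (horizontal axis) for each tested gene (rows), in the left panel 15 DHX genes and in the right panel 35 DDX genes, sorted by the uncorrected value. Filled points are TMM-scaled uncorrected values, open points length-corrected values, bars the SE of the fit, and grey lines join both values of a gene; the uncorrected values run from -0.43 to 1.24 in DHX and from -1.73 to 1.38 in DDX, and library totals shift them by about -0.73, which turns 25 of them negative.

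DHX9, DHX30, DHX38, DDX28 and DDX49 were higher in RIP under all 19 settings tried, library totals and the length correction included. Lower under all of them were 6 DDX genes and 1 DHX gene. The settings draw on the same 4 libraries, and the share of all tested genes with such calls was not computed. With library totals alone 10% of the members were higher, beside 17% of all tested genes. DHX9, or RNA helicase A, unwinds RNA and RNA:DNA hybrids in the nucleus and was the most abundant DHX mRNA per length in RIP. It had 1018 and 949.3 CPM in RIP, against 416.7 and 414.9 CPM in input. Every RIP library was above every input library, and the log2 fold change was 1.24 ± 0.07 (SE; adjusted p = 1.698e-10, edgeR). Groups without overlap, here and below, were also seen in members not called, such as DDX59 and DHX34. The share of all tested genes without overlap was not computed. For DHX9 the other fits gave the same direction. Its log2 fold change was 1.76 with the length correction and 0.51 with library totals.

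DHX30 and DDX28 both act in the assembly of the mitochondrial ribosome. DHX30 had 538.8 and 519.3 CPM in RIP, against 242.3 and 247 CPM in input, a log2 fold change of 1.11 ± 0.07 (SE; edgeR adjusted p = 4.501e-10). DDX28 had 48.0 and 46.4 CPM in RIP, against 17.6 and 18.6 CPM in input, a log2 fold change of 1.38 ± 0.09 (SE; edgeR adjusted p = 7.758e-10), and was the DDX gene with the largest fold, 2.61. The groups did not overlap for either gene. The length-corrected log2 fold changes were 1.48 for DHX30 and 1.22 for DDX28, and with library totals they were 0.38 and 0.65. Both tested members with a mitochondrial role were thus higher in each fit, as were 25.6% of all tested genes.

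**Figure D3:**
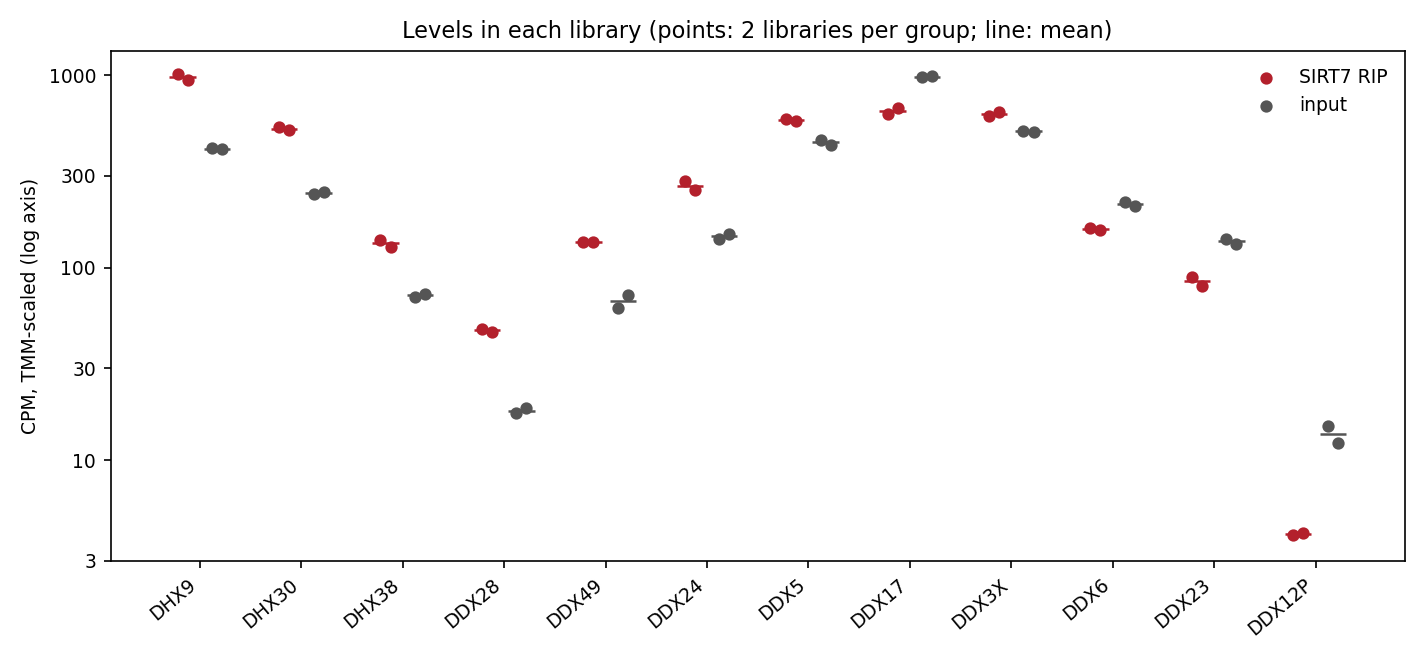
TMM-scaled CPM (vertical axis, logarithmic) of 12 helicase genes in each library, with red points for SIRT7 RIP, grey points for input and a short line for the mean of the 2 libraries of a group. DHX9, DHX30, DHX38, DDX28 and DDX49 lie higher in RIP with either scaling, and DDX17, DDX6, DDX23 and DDX12P lie lower with either. DDX24, DDX5 and DDX3X are higher with TMM. With library totals DDX24 is not called, and DDX5 and DDX3X are called lower.

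Of 15 tested helicases of ribosome assembly, the largest role group, 13 (86.7%) were higher and 1 (6.67%) lower with TMM scaling (median 0.37), beside 38% and 39.7% of all tested genes. By library totals 1 (6.67%) was higher and 10 (66.7%) lower, beside 17% and 65.5% of all tested genes. The larger share of higher genes was thus not there with that scaling. The group's median was then -0.36, still above the -0.76 of all tested genes, as 0.37 was above -0.03 with TMM. With the length correction 13 were higher and 2 lower (median 0.60), beside 34.8% and 35.6%, and 12 were higher in both fits. DDX49, which acts in processing for the small subunit, had 136.2 and 135.7 CPM in RIP, against 61.7 and 72.4 CPM in input. Its log2 fold change was 1.02 ± 0.08 (SE; edgeR adjusted p = 1.032e-08), and with its short mRNA (0.607 of the median length) the length-corrected value was 0.49.

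DDX24, a large-subunit factor, had 280.7 and 252.1 CPM in RIP, against 140.8 and 149.9 CPM in input. Its log2 fold change was 0.87 ± 0.07 (SE; edgeR adjusted p = 2.58e-08), and the length correction left it at 0.87. DDX10, of the small-subunit pathway, had 101.3 and 94.0 CPM in RIP, against 58.3 and 53.6 CPM in input, with a log2 fold change of 0.80 ± 0.08 (SE; edgeR adjusted p = 1.024e-07). DDX54, of the large-subunit pathway, had 228.7 and 211.8 CPM in RIP, against 131.3 and 133.9 CPM in input, with a log2 fold change of 0.73 ± 0.07 (SE; edgeR adjusted p = 1.01e-07). In all of these genes both RIP libraries were above both input libraries, which also held for DDX19B, a gene not called. With library totals DDX24, DDX10 and DDX54 had log2 fold changes of 0.14, 0.07 and 0.00 and were no longer called.

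Among the other nucleolar members, DDX56, DDX18, DDX50, DDX31, DDX27, DDX52, DDX51 and DDX21 had log2 fold changes between 0.20 and 0.69 and were higher in both fits. With library totals all of them had values below 0, and all but DDX56 were called lower. DDX21, which couples rRNA transcription to its processing, had 506.1 and 490 CPM in RIP, against 434.6 and 432.8 CPM in input. Its log2 fold change was 0.20 (edgeR adjusted p = 0.01239), and it was 0.76 with the length correction. DDX21 and DDX51 lost the uncorrected call without SIRT7 RIP replicate 1 (adjusted p = 0.1873 and 0.1438), DDX21 also without SIRT7 RIP replicate 2 (adjusted p = 0.09025), as did DDX52 (adjusted p = 0.1123). The length-corrected call of DDX27 (0.17) was lost without input replicate 2, SIRT7 RIP replicate 1 or SIRT7 RIP replicate 2 (adjusted p = 0.08187, 0.08679 and 0.07882).

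DDX55 was the ribosome-assembly member that was lower in each fit, with a log2 fold change of -0.33 and a length-corrected one of -0.48. DDX47, of early pre-rRNA processing, had 95.2 and 95.2 CPM in RIP, against 70.0 and 77.6 CPM in input, a log2 fold change of 0.37 ± 0.07 (SE; edgeR adjusted p = 0.0003232). Its mRNA is short (0.601 of the median), and its length-corrected value was -0.18 (edgeR adjusted p = 0.0207). That call was lost with the trend taken in length bins (adjusted p = 0.0505) and without input replicate 2, SIRT7 RIP replicate 1 or SIRT7 RIP replicate 2 (adjusted p = 0.169, 0.1283 and 0.1225). DHX37, which frees U3 snoRNA from the small-subunit processome, had 61.2 and 56.4 CPM in RIP, against 59.2 and 64.1 CPM in input. The groups overlapped, at a log2 fold change of -0.07 (edgeR adjusted p = 0.4398), and the length-corrected value was 0.45 (edgeR adjusted p = 3.973e-05).

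**Figure D4:**
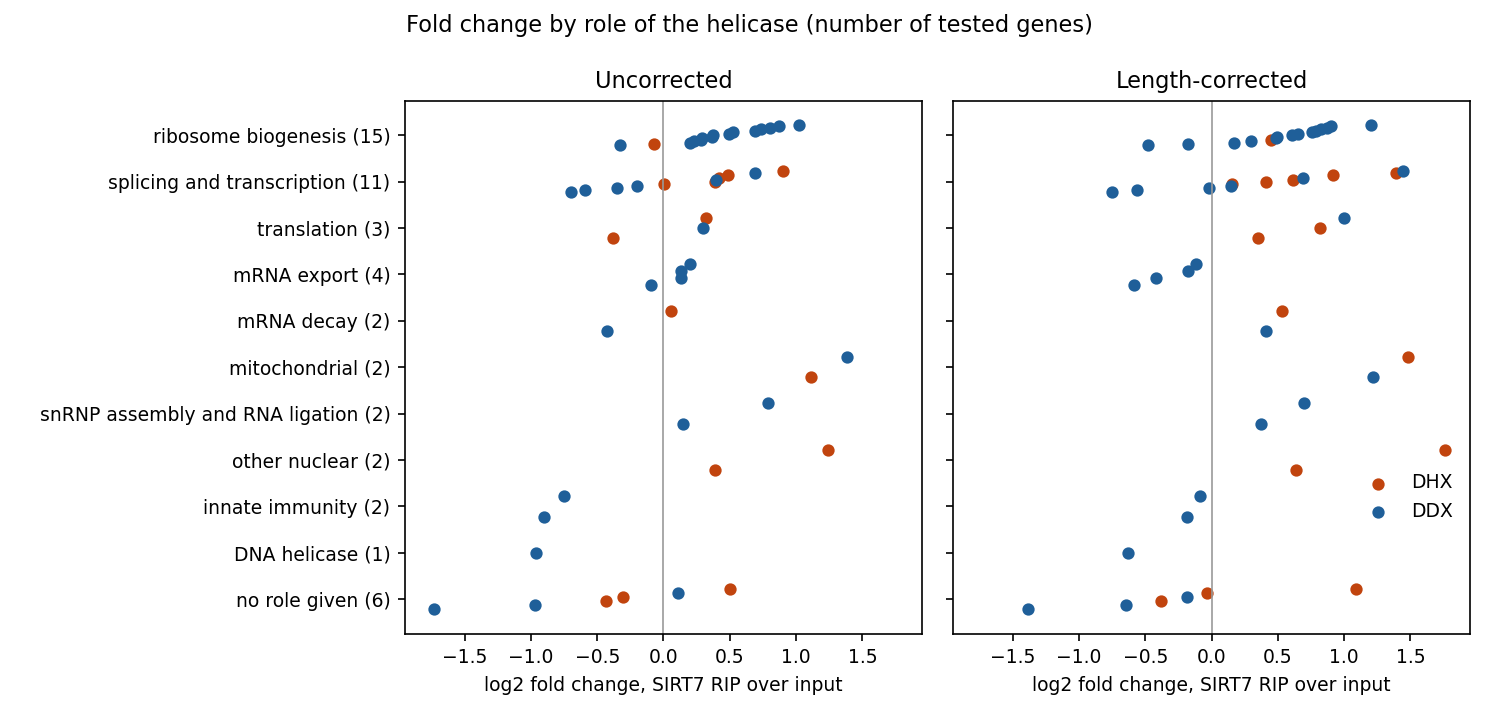
Log2 fold change of SIRT7 RIP over input (horizontal axis) for 50 tested genes grouped by the role of the helicase (rows, with the number of tested genes), uncorrected with TMM scaling in the left panel and length-corrected in the right panel, with orange points for DHX and blue points for DDX. Of 15 ribosome-biogenesis genes 13 are higher in the left panel (1 with library totals), while the 4 mRNA-export genes lie near 0 in the left panel (all 4 lower with library totals) and below 0 in the right panel. Of all tested genes 38% are higher with TMM scaling, and 17% are higher and 65.5% lower with library totals.

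Of 11 tested members in splicing and transcription, 6 (54.5%) were higher and 4 (36.4%) lower (median 0.39), beside 38% and 39.7% of all tested genes. By library totals 1 (9.09%) was higher and 9 (81.8%) lower, beside 17% and 65.5%. Length-corrected, 6 were higher and 2 (18.2%) lower (median 0.41), beside 34.8% and 35.6%. The DEAH-box enzymes that drive the spliceosome through its steps were mostly on the higher side. DHX38 (yeast Prp16), of the second splicing step, had 139.6 and 128.5 CPM in RIP, against 70.7 and 73.1 CPM in input. Its log2 fold change was 0.90 ± 0.07 (SE; edgeR adjusted p = 1.412e-08), 1.39 with the length correction and 0.17 with library totals.

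DHX8 (yeast Prp22), which releases spliced mRNA, had 124.6 and 113 CPM in RIP, against 85.2 and 84.0 CPM in input, a log2 fold change of 0.49. DHX16 (yeast Prp2), of spliceosome activation, had 95.9 and 95.4 CPM in RIP, against 73.4 and 69.9 CPM in input, a log2 fold change of 0.42. DHX15 (yeast Prp43), of spliceosome disassembly, had 272.9 and 269.5 CPM in RIP, against 208.8 and 206.6 CPM in input, a log2 fold change of 0.39 ± 0.07 (SE; edgeR adjusted p = 6.901e-05). For these DHX genes the RIP libraries were above the input libraries, but all 3 were called lower with library totals. Their length-corrected log2 fold changes were 0.92, 0.61 and 0.41. DHX35, also found with the spliceosome, had a log2 fold change of 0.00 (edgeR adjusted p = 0.9688) and a length-corrected one of 0.16 (edgeR adjusted p = 0.1334).

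The DDX members of this group went both ways. DDX46 (yeast Prp5), of the U2 snRNP, had 212.7 and 194.9 CPM in RIP, against 127.9 and 124.1 CPM in input, a log2 fold change of 0.69 (edgeR adjusted p = 2.367e-07). With an mRNA 2.04 times the median length, its length-corrected value was 1.45, the highest among the DDX genes. DDX23 (yeast Prp28), of the U5 snRNP, had 89.3 and 80.5 CPM in RIP, against 141.8 and 133.4 CPM in input, and fell by 0.70 ± 0.08 on the log2 scale (SE; edgeR adjusted p = 4.261e-07). DDX41 fell by 0.35 and, length-corrected, by 0.75. DDX23 and DDX41 were among the 6 DDX genes lower under all 19 settings, for which no share of all tested genes was computed. DDX42, which associates with SF3B, had a log2 fold change of -0.20 (edgeR adjusted p = 0.02384), a call lost without input replicate 1, SIRT7 RIP replicate 1 or SIRT7 RIP replicate 2 (adjusted p = 0.1414, 0.184 and 0.07426). Its length-corrected value was 0.15 (edgeR adjusted p = 0.0535, and 0.007219 without input replicate 1).

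The paralogues DDX5 (p68) and DDX17 (p72), coregulators of transcription and splicing, lay on opposite sides. DDX5 had 595.8 and 580.8 CPM in RIP, against 460 and 435.5 CPM in input, a log2 fold change of 0.39 ± 0.07 (SE; edgeR adjusted p = 6.818e-05). DDX17 had 630.2 and 672.6 CPM in RIP, against 978.5 and 987.1 CPM in input, and fell by 0.59 ± 0.07 on the log2 scale (SE; edgeR adjusted p = 8.777e-07). Per length, DDX17 was below DDX5 in RIP and above it in input. The log2 ratio of DDX17 to DDX5 in FPKM (fragments per kilobase, scaled by library size) was -0.29 and -0.16 in the RIP libraries, against 0.72 and 0.81 in the input libraries. This ratio is taken within a library and does not depend on its scaling, and it differed by -0.99 ± 0.11 between the groups (SD, n = 2 each).

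Length-corrected, DDX5 was at 0.69 (edgeR adjusted p = 2.929e-09) and DDX17 at -0.02 (edgeR adjusted p = 0.7554), and the DDX17 mRNA is long (1.71 of the median). DDX5 had a value of -0.34 with library totals and was then called lower. With 2 against 2 libraries no exact permutation test over libraries can go below p = 0.33, so none is given for the ratio.

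In mRNA export 4 of 5 members were tested, 1 was higher and 0 lower, beside 38% and 39.7% of all tested genes. Scaling by library totals made all 4 lower, beside 65.5% of all tested genes. Length-corrected, 0 were higher and 3 (75%) lower (median -0.30), beside 34.8% and 35.6%. DDX39B (UAP56), of the TREX export complex, was the most abundant DDX mRNA per length in RIP, with a mean of 187.1 FPKM in RIP and 160.2 FPKM in input. It had 377.4 and 397.1 CPM in RIP, against 333.4 and 341.3 CPM in input, a log2 fold change of 0.20 ± 0.07 (SE; edgeR adjusted p = 0.01389), lost without SIRT7 RIP replicate 1 or SIRT7 RIP replicate 2 (adjusted p = 0.06984 and 0.2116). Its length-corrected value was -0.18 (edgeR adjusted p = 0.008429), and that call was lost with length bins (adjusted p = 0.3143) and without SIRT7 RIP replicate 1 (adjusted p = 0.1952).

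DDX39A, the paralogue of DDX39B, had 109.2 and 112.2 CPM in RIP, against 98.2 and 103.9 CPM in input, with a log2 fold change of 0.13 (edgeR adjusted p = 0.09613, and 0.01895 without input replicate 2) and a length-corrected one of -0.59 (edgeR adjusted p = 1.167e-07). DDX19B, a helicase at the cytoplasmic side of the nuclear pore, had 20.5 and 21.1 CPM in RIP, against 18.9 and 19.0 CPM in input. Its log2 fold change was 0.13 (edgeR adjusted p = 0.2101), and its length-corrected one -0.42 (edgeR adjusted p = 0.0005376). Its neighbour in sequence DDX19A had 65.4 and 61.6 CPM in RIP, against 68.8 and 66.9 CPM in input, and passed neither test (log2 fold change -0.10 and, length-corrected, -0.12). Reads of close copies can be shared out between them in counting, so the split within these pairs is uncertain.

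The within-library FPKM ratios compare such pairs independently of library scaling, but not of the trend with length. The log2 ratio of DDX39A to DDX39B was -1.26 and -1.29 in RIP, against -1.23 and -1.18 in input, a difference of -0.07 ± 0.04 (SD, n = 2 each). The log2 ratio of DDX19A to DDX19B was 0.91 and 0.78 in RIP, against 1.13 and 1.07 in input, a difference of -0.25 ± 0.10 (SD, n = 2 each). For the nucleolar pair DDX50 and DDX21, the log2 ratio of DDX50 to DDX21 was -1.13 and -1.04 in RIP, against -1.38 and -1.38 in input, a difference of 0.29 ± 0.06 (SD, n = 2 each). None of these ratios overlapped between the groups, and the difference within the DDX39 pair was the smallest of the 5 pairs examined. Length-corrected log2 fold changes were -0.12 for DDX19A and -0.42 for DDX19B, and 0.30 for DDX50 and 0.76 for DDX21. The order within both of these pairs was then the opposite one. In the DDX39 pair they were -0.59 for DDX39A and -0.18 for DDX39B, further apart than without the correction. A readthrough gene that spans DDX39B had 42 and 28 fragments in RIP and 59 and 25 in input.

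In translation 3 of 4 members were tested, 2 higher and 1 lower, beside 38% and 39.7% of all tested genes. By library totals 3 were lower, beside 65.5% of all tested genes. With the length correction 3 were higher, beside 34.8%. DDX3X, which helps initiation on structured leaders, had 616.5 and 647.6 CPM in RIP, against 516 and 510.4 CPM in input, a log2 fold change of 0.30 ± 0.07 (SE; edgeR adjusted p = 0.0007482). Its long mRNA (1.94 of the median) gave a length-corrected value of 1.001 (edgeR adjusted p = 1.984e-11). DHX29, which works on the 40S subunit, had 77.6 and 77.6 CPM in RIP, against 62.5 and 61.6 CPM in input, a log2 fold change of 0.32 and a length-corrected one of 0.82. DHX33 had 45.0 and 52.8 CPM in RIP, against 64.4 and 63.2 CPM in input, and fell by 0.38 ± 0.09 on the log2 scale (SE; edgeR adjusted p = 0.0007081). With the longest DHX mRNA (2.01 of the median) its length-corrected value was 0.35 (edgeR adjusted p = 0.0004143).

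DDX6 is a decapping activator and translational repressor of P-bodies. It had 161.4 and 157.8 CPM in RIP, against 219.2 and 209.5 CPM in input, and fell by 0.43 ± 0.07 on the log2 scale (SE; edgeR adjusted p = 3.174e-05). Its mRNA was the longest of the tested members (2.22 of the median), and its length-corrected log2 fold change was 0.41 (edgeR adjusted p = 6.181e-06). The other decay member, the nonsense-mediated decay factor DHX34, had a log2 fold change of 0.06 (edgeR adjusted p = 0.481) and a length-corrected one of 0.53 (edgeR adjusted p = 2.435e-06).

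DDX1, of the tRNA ligase complex, had 225.7 and 237.3 CPM in RIP, against 137 and 130.7 CPM in input, a log2 fold change of 0.79 ± 0.07 (SE; edgeR adjusted p = 3.593e-08) that was 0.69 with the length correction and 0.06 with library totals. DDX20 (GEMIN3), of the SMN complex, had a log2 fold change of 0.15 (edgeR adjusted p = 0.07496, and 0.03733 without input replicate 2) and a length-corrected one of 0.37. DHX36, which resolves G-quadruplexes, had 79.2 and 76.0 CPM in RIP, against 63.6 and 55.2 CPM in input. Its log2 fold change was 0.39 (edgeR adjusted p = 0.0004662) and 0.64 with the length correction. With library totals it was -0.35 and called lower.

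Without the length correction the 5 lowest values were those of the genes outside the DEAD-box family proper. With it DDX12P was still the lowest, but DDX41 of the DEAD-box family came next. DDX11, an iron-sulphur DNA helicase of sister chromatid cohesion, had 28.6 and 23.9 CPM in RIP, against 56.0 and 46.4 CPM in input, and fell by 0.97 ± 0.11 on the log2 scale (SE; edgeR adjusted p = 5.789e-07). DDX12P, a transcribed pseudogene copy of DDX11, had 4.07 and 4.17 CPM in RIP, against 15.1 and 12.2 CPM in input, and fell by 1.73 ± 0.16 on the log2 scale (SE; edgeR adjusted p = 4.977e-08). Both stayed lower with the length correction, by 0.63 and 1.39 on the log2 scale. How reads were split between these near-identical copies is uncertain, and their summed level was 32.6 and 28.1 CPM in RIP, against 71.1 and 58.6 CPM in input. The strand setting of the counting is not given in the sources used here, and the antisense gene DDX11-AS1 had 43 and 50 fragments in RIP and 52 and 42 in input.

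DDX58 (RIG-I), a sensor of viral RNA, had 2.51 and 4.31 CPM in RIP, against 5.74 and 5.74 CPM in input, and fell by 0.75 ± 0.22 on the log2 scale (SE; edgeR adjusted p = 0.00593), a call lost without SIRT7 RIP replicate 1 (adjusted p = 0.1181). DDX60, an interferon-induced helicase, had 1.86 and 1.49 CPM in RIP, against 3.02 and 3.26 CPM in input, and fell by 0.90 ± 0.25 on the log2 scale (SE; edgeR adjusted p = 0.003316). Neither passed the length-corrected test, with values of -0.18 and -0.09, though DDX58 did without SIRT7 RIP replicate 2 (edgeR adjusted p = 0.03579). DDX26B had 6.78 and 9.03 CPM in RIP, against 15.7 and 15.3 CPM in input, and fell by 0.97 ± 0.14 on the log2 scale (SE; edgeR adjusted p = 9.717e-06), and by 0.65 with the length correction.

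Of the DHX genes with no role stated here, DHX57 had 73.3 and 63.0 CPM in RIP, against 48.8 and 47.3 CPM in input, a log2 fold change of 0.50 ± 0.08 (SE; edgeR adjusted p = 5.34e-05) and a length-corrected one of 1.09. DHX40 had 86.6 and 86.5 CPM in RIP, against 106.7 and 107 CPM in input, and fell by 0.30 ± 0.07 on the log2 scale (SE; edgeR adjusted p = 0.000836), with a length-corrected value of -0.03 (edgeR adjusted p = 0.6444). DHX32 had 30.3 and 33.4 CPM in RIP, against 42.8 and 43.2 CPM in input, and fell by 0.43 ± 0.09 on the log2 scale (SE; edgeR adjusted p = 0.000258). It was the DHX gene that stayed lower with the length correction, by 0.38. DDX59 had a log2 fold change of 0.11 (edgeR adjusted p = 0.2669).

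Most tested helicase mRNAs were abundant for this table. Their mean FPKM over the libraries had a median of 18.7 in DHX and 26.3 in DDX, beside 6.95 in all tested genes, and 14 of 15 DHX and 31 of 35 DDX genes lay above that value. Across the 50 members log2 fold change and mean FPKM had a Spearman rho of 0.454, and across all tested genes it was 0.484. With the length-corrected values rho was 0.314 across the members and 0.314 across all tested genes. All of these are descriptions across genes that share the same 4 libraries. The part of abundance in the members' fold changes was not tested.

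As a share of all fragments, DHX genes took 0.207% ± 0.00687 in RIP and 0.209% ± 0.00251 in input (SD, n = 2 each), and the libraries of the groups overlapped. DDX genes took 0.431% ± 0.000885 in RIP and 0.635% ± 0.00937 in input. Without DDX17 the DDX share was 0.381% ± 0.00317 in RIP and 0.509% ± 0.00876 in input. With the 10 most abundant RIP genes left out of the total, the DHX share was 0.234% ± 0.00792 in RIP and 0.216% ± 0.00239 in input, with every RIP library higher, and the DDX share was 0.488% ± 0.00129 in RIP and 0.656% ± 0.00906 in input. As a share of summed FPKM, DHX genes took 0.0492% ± 0.00168 in RIP and 0.0848% ± 0.00406 in input, and DDX genes took 0.125% ± 0.000404 in RIP and 0.294% ± 0.0131 in input. The order of the groups for DHX thus depended on the total used, while DDX was lower in RIP by each of the 3 measures. Shares of all fragments are scaled by library totals. With that scaling the median log2 fold change was -0.76 over all tested genes, -0.53 in DDX and -0.35 in DHX. Both class medians thus lay above that of all tested genes. The exact permutation test cannot go below p = 0.33 here either.

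The effective length of a gene can differ between libraries when its isoforms do. It differed by more than 1% between any libraries for 4 of 50 members, beside 21.8% of 14463 genes. Between the group means, DHX30, DDX31 and DDX11 were longer in RIP by 0.899%, 1.53% and 0.592%, and DDX19B was shorter, by -1.21%. The log2 ratio of RIP to input for DHX30 was 1.12 in FPKM and 1.11 in CPM.

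The 12 members that were not tested had at most 11 fragments in any library. They were DHX58 (LGP2) with 11 and 10 fragments in RIP and 5 and 10 in input, the germline genes DDX4, DDX43 and DDX53, DDX25, DDX3Y, DDX60L, and the transcribed pseudogenes DDX11L1, DDX11L2, DDX11L5, DDX11L9 and DDX11L10. DDX53 and DDX60L had 0 of 87095842 fragments over the 4 libraries, which allows a share of up to 3.44e-06%.

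Among 20 tested RNA helicases without a DDX or DHX symbol, 7 (35%) were higher and 7 (35%) lower, near the 38% and 39.7% of all tested genes, and the median log2 fold change was 0.09. By library totals 0 were higher and 18 (90%) lower, beside 17% and 65.5%. The correction for length gave 8 (40%) higher and 4 (20%) lower, beside 34.8% and 35.6%, and a median of -0.002. The most abundant, the initiation factor EIF4A1, had 1846 and 1884 CPM in RIP, against 1228 and 1264 CPM in input, a log2 fold change of 0.58 and a length-corrected one of 0.07 (edgeR adjusted p = 0.1947). EIF4A3, of the exon junction complex, had a log2 fold change of 0.52 and a length-corrected one of -0.08 (edgeR adjusted p = 0.2461). DICER1, which cuts microRNA precursors and has a long mRNA (3.28 of the median), fell by 1.79 on the log2 scale, the largest uncorrected change in this list. Length-corrected it fell by 0.62, and the largest change was then the increase of HELZ2, 1.62, a gene named after its values were seen.

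Genes of proteins that partner with these helicases gave counts on both sides. Of 30 tested cofactors, such as the MIF4G and G-patch proteins, 14 (46.7%) were higher and 14 (46.7%) lower, beside 38% and 39.7% of all tested genes. Scaled by library totals it was 1 (3.33%) and 24 (80%), beside 17% and 65.5%, and length-corrected 12 (40%) each, near the 34.8% and 35.6% of all tested genes. RBM10, a G-patch splicing regulator, had 525 and 524 CPM in RIP, against 115.4 and 111.5 CPM in input, a log2 fold change of 2.21 and a length-corrected one of 2.38. CNOT1, the scaffold of the deadenylase complex that binds DDX6, fell by 1.52, and by 0.42 with the length correction. EIF4H and EIF4B, which stimulate eIF4A, had log2 fold changes of 0.57 and 0.19, and length-corrected ones of 0.36 and 0.57.

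Of 23 tested partners in the SMN, TREX and tRNA ligase complexes, 14 (60.9%) were higher and 4 (17.4%) lower, beside 38% and 39.7% of all tested genes. Scaled by library totals it was 6 (26.1%) and 11 (47.8%), beside 17% and 65.5%. The length correction gave 9 (39.1%) higher and 10 (43.5%) lower, near the 34.8% and 35.6% of all tested genes. These mRNAs were short, with a median length of 0.606 of the median tested gene. GEMIN7 and THOC6 had log2 fold changes of 1.74 and 1.44, and length-corrected ones of 1.06 and 0.63. ALYREF, the export adaptor that DDX39B loads, had values of 1.28 and 0.19, and C14orf166, which joins DDX1 in the tRNA ligase complex, had values of 0.90 and -0.23.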

How the data were processed

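One table gave 23615 genes in 4 libraries, 2 SIRT7 RIP and 2 input, grouped by their titles. The submitters' processing notes name the build hg19 and the tools Cuffdiff 2.2.1, TopHat2 2.0.13, Bowtie2 2.2.6 and cutadapt 1.5. The annotation and the handling of multiply mapped reads are not stated there. Estimated counts were deposited as unscaled fragments of each gene, 98.08% of them whole (tolerance 1e-06). A deposited signal column holds the same fragments divided by 1 factor per library (0.93 to 1.123, read from the values). FPKM values, deposited beside them, are scaled fragments per kilobase as the authors computed them. Cuffdiff marked 12 of 94460 entries as failed, 0 of them for members. The table numbers replicates from 0, and its numbers were read in order as those of the titles. 0 columns belonged to other samples.

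Estimated counts were rounded. Genes passing filterByExpr (minimum count 10, total 15) entered edgeR 4.0.16 under R 4.3.3 with TMM factors (0.7767 and 0.7759 in RIP, 1.298 and 1.278 in input), a model with the group term alone (glmQLFit, glmQLFTest) and p-values adjusted by Benjamini-Hochberg over all 14555 genes. The SE is the log2 fold change over the square root of its F. The common coefficient of variation between libraries was 5.68%. Effective length was the summed signal over the summed FPKM of a gene. For length-corrected values, a lowess curve (span 0.3) of each library's log2 CPM deviation on log2 length entered the fit as offsets. Fragments are not unique molecules, so the limit given for 0 fragments (3 counts) covers counting error only.

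Alternatives were library totals, DESeq2 1.42.0, no low-count filter, the trend from medians of 50 length bins, limma 3.58.1 on log2(FPKM + 1) and log2(FPKM + 0.1), the replicate number as a block, and each library left out. The procedure was tested on simulated data. Members, roles and lists were chosen with earlier results of these data known. Full values were given for the 6 highest and 6 lowest called DDX and the 4 highest and 4 lowest called DHX genes with a mean of 50 counts, the 3 most abundant of each class, genes whose call turned, and near-identical pairs. The rule let every member be named; from each other list it took the 2 most abundant and the 2 largest called changes, of which 1 gene is not reported here. By symbol 60 members were found in RefSeq's gene list, and 2 by synonym.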

Additional observations from a re-analysis of the deposited data

How the results depend on the processing

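Library totals in place of TMM factors shift each log2 fold change by about -0.73 by construction, and this was the choice that changed most calls. All genes then had 2479 higher and 9539 lower, members 5 and 39, DDX genes 2 and 27, and DHX genes 3 and 12. The log2 fold changes of 25 members became negative: -0.20 for DDX18, -0.60 for DDX19B, -0.58 for DDX20, -0.53 for DDX21, -0.44 for DDX27, -0.36 for DDX31, -0.60 for DDX39A, -0.53 for DDX39B, -0.43 for DDX3X, -0.0374 for DDX46, -0.36 for DDX47, -0.34 for DDX5, -0.24 for DDX50, -0.50 for DDX51, -0.44 for DDX52, -0.0436 for DDX56, -0.62 for DDX59, -0.35 for DHX15, -0.31 for DHX16, -0.41 for DHX29, -0.67 for DHX34, -0.73 for DHX35, -0.35 for DHX36, -0.23 for DHX57 and -0.24 for DHX8. The length correction turned the sign of 9 members, with values from the smooth trend, from length bins and from the replicate block with length correction of -0.42, -0.39 and -0.42 for DDX19B, -0.59, -0.61 and -0.59 for DDX39A, -0.18, -0.0655 and -0.18 for DDX39B, 0.15, 0.21 and 0.15 for DDX42, -0.18, -0.15 and -0.18 for DDX47, -0.18, -0.17 and -0.18 for DDX59, 0.41, 0.51 and 0.41 for DDX6, 0.35, 0.44 and 0.35 for DHX33, and 0.45, 0.52 and 0.45 for DHX37. DDX60 had 0.0243 with length bins. With bins 9 members were lower, and 1 DHX gene was lower under each of the 3 forms of the correction. The DHX minus DDX median was 0.31 with the smooth trend, 0.27 with bins and 0.31 with the block and length correction. It was 0.10, and 0.17 length-corrected, with DEAD-box genes alone as DDX, a choice made after seeing the data, like the length-corrected fits without a library or with library totals. Without 1 library each it ran from 0.10 to 0.20 uncorrected. In the same fits the log2 fold change ran from -0.0573 to 0.0787 for DHX35 and from -0.13 to 0.0072 for DHX37, and length-corrected from -0.0566 to 0.0201 for DDX17, from -0.61 to 0.15 for DDX58 and from -0.27 to 0.0857 for DDX60. DDX genes then had 16 to 21 higher and 9 to 11 lower, and DHX genes 9 and 3 throughout. The members' share of fragments differed by -0.21 percentage points between RIP and input, and by -0.15 without the 10 most abundant RIP genes. The DDX share differed by -0.20, by -0.17 without those 10 genes, by -0.17 as a share of FPKM, and by -0.13 without DDX17, which was added after seeing the data. The DHX share differed by -0.002, by 0.0186 without those 10 genes and by -0.0356 as a share of FPKM. Where these results changed, other than by the shift, the cause was not tested. DESeq2, the missing filter, limma on FPKM and the replicate block changed at most 1 member's call each (DDX42, lost with DESeq2 and limma). Libraries with the same number shared only that number (correlation of deviations 0.0409 over genes), and with the replicate block 19 DDX genes were higher and 11 lower, 9 DHX genes were higher and 3 lower, and of all genes 5580 were higher and 5861 lower.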
